A study of Mus musculus with 8 samples.

Results

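Histone genes encode the proteins that package DNA into nucleosomes. The genes described here are the 80 of 57180 annotated mouse genes whose symbols begin with the stems of the linker histone H1 and the core histones H2A, H2B, H3 and H4, with 6 pseudogenes marked "-ps" left out of 86 matching names. They fall into 67 replication-dependent genes and 13 variant genes, the second class including the antisense transcript H3f3aos and the genes H3f3c and H3f4, which GENCODE M21 annotates as pseudogenes. By family there are 11 genes of H1, 21 of H2A, 18 of H2B, 16 of H3, 13 of H4 and 1 antisense transcript. Of the replication-dependent genes, 54 lie in cluster 1 on chromosome 13, 10 in cluster 2 on chromosome 3, 2 in cluster 3 on chromosome 11 and 1 in cluster 4 on chromosome 6.

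RNA was sequenced from sorted mouse regulatory T (Treg) cells, which hold immune responses in check. There were 3 libraries labelled chimera KO and 5 labelled chimera WT, called KO and WT libraries below. The labels name no deleted gene, agent, strain, age or sex and say nothing of the host or of the share of donor cells, so the deletion could not be checked and what both groups share is not known. They assign no animal to a library, so a p-value measures the spread between libraries, which may be partly technical. By its title the series is about copper and Treg suppression; the question asked here is how histone transcripts differed between the groups.

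Replication-dependent histone genes supply the bulk of new histones while DNA is copied. Their mRNAs end in a conserved stem-loop in place of a poly(A) tail, and the stem-loop binding protein SLBP acts on it in processing, translation and decay. The variant genes of H3.3 and H2A.Z make ordinary polyadenylated mRNAs and are expressed throughout the cell cycle, also in resting lymphocytes. The kit used, SMART-Seq v4, starts cDNA from poly(A) tails, so transcripts without a tail are captured poorly, and it does not mark the strand of a read. The part of tail capture in the levels below was not tested.

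The classes were assigned by gene name. The stem-loop, far more frequent in the annotated transcripts of the replication-dependent class, is shown for 8 replication-dependent genes that are among the most abundant per length and for the 1 variant gene that holds it. Sequences are from the GENCODE M21 transcripts (GRCm38), 5′ to 3′ in DNA letters. Capitals mark the stem-loop and lower case its flanks.
H1f2: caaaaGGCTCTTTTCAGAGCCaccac
H2ac18: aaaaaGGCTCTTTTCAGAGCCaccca
H2ac20: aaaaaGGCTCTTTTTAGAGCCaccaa
H2ac24: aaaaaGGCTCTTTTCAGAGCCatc
H2bc11: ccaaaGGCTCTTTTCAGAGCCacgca
H4c3: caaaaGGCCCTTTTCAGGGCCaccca
H4c4: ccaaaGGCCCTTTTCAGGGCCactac
H4c8: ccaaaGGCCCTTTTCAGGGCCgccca
H2ax: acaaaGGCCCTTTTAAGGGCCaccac

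The search, on the transcript strand, was for GG, 3 free bases, TTT, 2 free bases, A, 3 free bases and CC, with the 6 outer bases at each end able to pair. It found 43 of 67 replication-dependent transcripts (64.2%), 1 of 13 variant transcripts (7.69%) and 24 of 21874 other protein-coding genes (0.11%). The H1f2, H2ac18, H2ac24 and H2bc11 form, GGCTCTTTTCAGAGCC, occurred in 25 replication-dependent transcripts, and the form of the 3 H4 genes shown, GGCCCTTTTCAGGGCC, in 7. Annotated transcripts differed in where they end: 20 ended within 60 bases of the stem-loop, 5 ended 61 to 200 bases after it, and 18 ran on for over 200 bases. H4c3 ran 454 bases past it, H4c4 770 and H1f2 840 bases. Of the 24 transcripts without a match, 17 have a length that is a multiple of 3. The poly(A) signal AATAAA stood in the last 50 bases of 14 replication-dependent and 6 variant transcripts. In RefSeq promoters (GRCm38.p6, 250 bases before to 50 after the start, 73 genes matched), CCAAT on either strand was present in 53 of 62 replication-dependent genes (85.5%), 7 of 11 variant genes (63.6%) and 37.9% of 27025 promoters. TATAAA was present in 35 of 62 (56.5%), 2 of 11 (18.2%) and 14.2%.

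Each value in the authors' table is an estimated count of a gene in a library. Totals were 4.31 to 8.48 M (mega counts) in KO and 10.5 to 18 M in WT libraries. Levels are given as normalised CPM, counts per M of library size after scaling by TMM factors, which multiply library sizes and were 1.32 to 1.49 in KO libraries and 0.4, 0.689 and 1.08 to 1.15 in WT replicates 4, 5 and 1 to 3. Genes at 10 or more counts numbered 12491 to 14318 in KO and 12758 to 14090 in WT replicates 1 to 3, but 8250 and 9484 in WT replicates 4 and 5, which stood apart. The 8 B cell markers summed to 131 to 213 normalised CPM in KO libraries, 6225 in WT replicate 4 and 230.0 to 607 in the other WT libraries, and the 8 CD8 T and NK cell markers to 18.5 to 91.1, 4140 and 48.6 to 254. The 8 erythroid markers summed to at most 7.34 in KO libraries, 9557 in WT replicate 5 and at most 22.2 in the other WT libraries, and the 8 myeloid markers to 5.25 to 58.3 in KO and 3.82 to 297 in WT libraries. Of these markers, 1 of the CD8 T and NK list was at 0 in all libraries. The 8 T cell markers summed to 1624 to 3235 in KO and 4126 to 24877 in WT libraries. The 6 Treg markers summed to 2638, 1086 and 693 in KO and 3599, 6055, 5270.5, 2847 and 2242 in WT libraries. The Treg factor gene Foxp3 was at 26.6, 2.69 and 24.2 normalised CPM in KO and 11.9, 36.6, 41.9, 3.09 and 1.26 in WT libraries. The part of these differences in the histone values was not tested, and fewer cells of a type and less RNA per cell cannot be told apart in such samples.

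Among all histone genes, 4 accounted for most of the signal. H3f3b, H3f3a, H2az1 and H2az2 together held 85.4, 80.8 and 81.8% of the histone counts in KO replicates 1 to 3, and 88.5, 92.3, 89.3, 92.6 and 90.6% in WT replicates 1 to 5. Per kilobase of transcript, the highest mean levels over the 8 libraries were those of H2az1 (1571 normalised CPM per kilobase) and H3f3b (1250), followed by H3f3a (417), H2ac24 (215) and H2az2 (137). The order of the group means of the first pair differed. H2az1 averaged 429 and H3f3b 524 normalised CPM per kilobase in KO libraries, and H2az1 2256 and H3f3b 1685 in WT libraries. This order of the means did not hold in each library: in KO replicate 3, H2az1 was above H3f3b per kilobase, and in WT replicate 1 both were about level.

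H2az1 (ENSMUSG00000037894, chromosome 3, 137864487 to 137866922, plus strand) encodes H2A.Z, the H2A variant found around the start sites of active genes. It was at 634, 382 and 360.5 normalised CPM in KO libraries and at 1164, 1946, 1336, 3414 and 4197 in WT libraries. Every KO library lay below every WT library, and this also held for CPM without TMM scaling (unscaled CPM), 855, 560.0 and 467 in KO against 1325, 2105, 1422, 1352 and 2853 in WT libraries. The means were 459 ± 152 in KO (SD, n = 3) and 2412 ± 1334 in WT libraries (n = 5), a log2 change of −2.39 (SE 0.60, 95% interval −3.73 to −1.06; positive values mean higher in KO). In edgeR's quasi-likelihood test the unadjusted p was 0.00261 and the Benjamini-Hochberg adjusted p over 14755 genes 0.325, so the gene did not pass 0.05. In DESeq2 its adjusted p was 0.0109. Its share of all histone counts was 16, 16.7 and 15.5% in KO and 22.7, 33.8, 24.6, 19.9 and 31.4% in WT libraries, a ratio within each library that does not depend on scaling.

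The second H2A.Z gene, H2az2 (chromosome 11, 6427229 to 6444443, minus strand), spread far more. It was at 73.0, 4.78 and 3.40 normalised CPM in KO and 45.3, 70.5, 27.7, 952 and 614 in WT libraries. KO replicate 1 lay above the first 3 WT libraries, so the groups overlapped, and WT replicates 4 and 5 were the highest. The log2 change of H2az2 was −3.66 (SE 1.64; adjusted p = 0.347 in edgeR and 0.0473 in DESeq2), and it was −6.45 without KO replicate 1 and −0.86 without WT replicates 4 and 5. Per kilobase, H2az1 supplied 93.0, 99.2 and 99.4% of the pair in KO and 97.5, 97.7, 98.7, 84.6 and 91.3% in WT libraries.

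H3f3b and H3f3a encode the same H3.3 protein, which replaces H3 outside replication. H3f3b (chromosome 11, 116021912 to 116027962, minus strand) was at 2311, 949 and 695 normalised CPM in KO and 2738, 2907, 2637, 7046 and 5851 in WT libraries. The groups did not overlap on this scale, with a log2 change of −1.68 (SE 0.59, 95% interval −3.00 to −0.37; adjusted p = 0.325 in edgeR, 0.0638 in DESeq2). Without TMM scaling they did: KO replicate 1 had 3117 unscaled CPM and WT libraries 2790.3 to 3978. H3f3a (chromosome 1, 180800832 to 180813943, minus strand) was at 370.3, 521 and 841 normalised CPM in KO and 588, 387, 844, 4489 and 1446 in WT libraries. The groups overlapped, and WT replicate 4 was the highest library (log2 change −1.43, SE 0.83, adjusted p = 0.404 in edgeR). The balance of the pair varied: per kilobase H3f3b made up 87.6, 67.3 and 48.3% of it in KO and 84.0, 89.5, 77.9, 63.9 and 82.1% in WT libraries. H3f3aos, an antisense transcript on the plus strand (180813776 to 180816859) that overlaps the 5′ end of H3f3a, averaged 1.36 ± 0.24 normalised CPM in KO and 1.75 ± 1.47 in WT libraries. Without strand, only reads in the short overlap cannot be told from those of H3f3a.

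**Figure D1:**
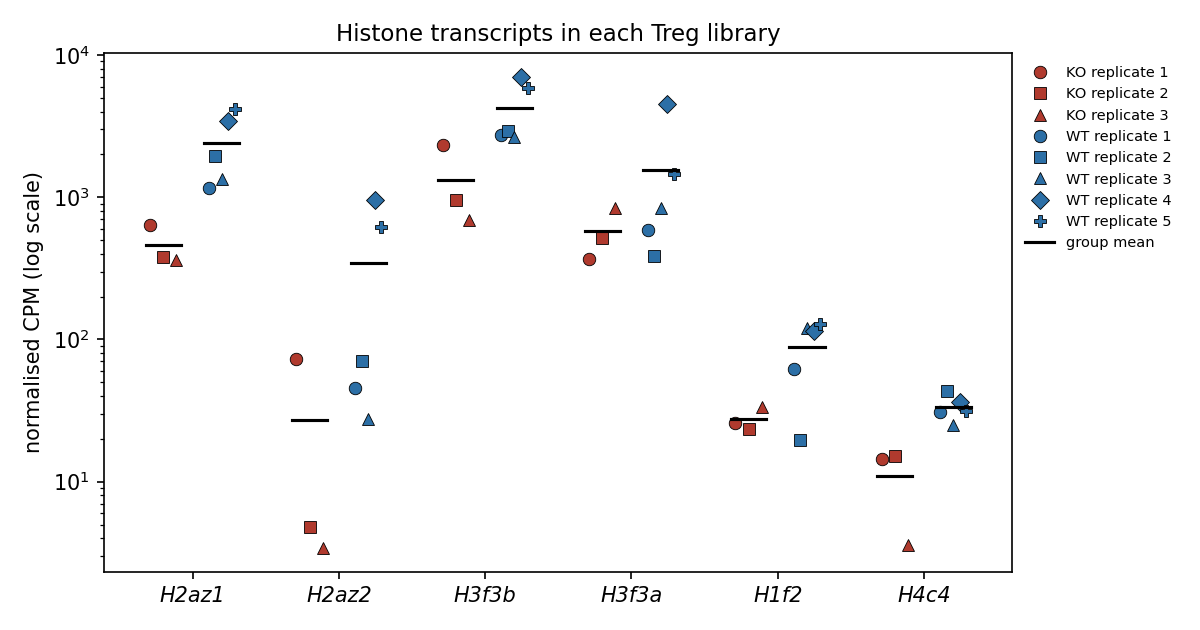
Normalised CPM (log axis) of 6 histone genes in each library, KO libraries in red left of WT libraries in blue, with marker shapes for replicates and black lines for group means. All 3 KO libraries sit below all 5 WT libraries for H2az1, H3f3b and H4c4, while H2az2, H3f3a and H1f2 overlap. Without TMM scaling H3f3b and H4c4 overlap too. The 6 genes shown all have log2 changes below 0 and do not stand for all tested histone genes. Of those 45 genes, 4 did not overlap (8.89%), against 17.7% of all genes. The 1 that was higher in KO, H2bc23, is not shown.

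The other variant genes were low. H1f0, the linker histone of resting and differentiated cells, had 154, 31.9 and 11.6 counts in KO and 274, 41.0, 390.2, 276 and 6 in WT libraries (log2 change −1.53, SE 1.40). H2ax, which encodes the H2A form phosphorylated at DNA breaks, had 15.2, 2.04 and 42.3 counts in KO and 30.7, 1, 0, 78.3 and 134 in WT libraries (log2 change −1.09, SE 1.90). Both overlapped between groups, with adjusted p of 0.561 and 0.763 in edgeR. H1f7, a testis linker histone, was below the filter on low counts, with 1, 39 and 56 counts in KO and 5, 0, 2, 0 and 1 in WT libraries. DESeq2, which tested it, called it at an adjusted p under 0.05, but most of its counts came from KO replicates 2 and 3. The gene is named here after its values were seen, so the call is no support for a difference.

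Of the linker genes made in S phase, H1f2 (chromosome 13, 23738808 to 23740367, plus strand) was the highest per length. It was at 26.0, 23.5 and 33.6 normalised CPM in KO and 61.8, 19.6, 121, 115 and 128 in WT libraries. WT replicate 2 lay below every KO library and the other WT libraries above them (log2 change −1.69, SE 0.88, adjusted p = 0.377 in edgeR, 0.0689 in DESeq2). H1f4 had 344, 84.0 and 243 counts in KO and 103, 253, 300.1, 447 and 212 in WT libraries. H1f3 had 210.5, 192 and 174 counts in KO and 36.6, 178, 128, 248 and 1 in WT libraries. In unscaled CPM, all KO libraries were above all WT libraries for H1f3, 24.8, 42.0 and 40.2 against 3.45, 16.7, 11.5, 13.8 and 0.0948; with scaling the groups overlapped.

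The H4 genes encode 1 protein from many copies. H4c4 (chromosome 13, 23581598 to 23582735, plus strand) was at 14.4, 15.1 and 3.58 normalised CPM in KO and 30.8, 43.4, 25.1, 36.2 and 31.5 in WT libraries. The groups did not overlap on this scale (log2 change −1.60, SE 0.98, adjusted p = 0.418 in edgeR, 0.0491 in DESeq2). In unscaled CPM they overlapped, 19.5, 22.1 and 4.57 in KO against 35.0, 47.0, 26.7, 14.4 and 21.4 in WT libraries. H4c3 was at 84.0, 21.4 and 10.6 normalised CPM in KO and 60.8, 62.1, 37.3, 209 and 39.8 in WT libraries (log2 change −1.08, SE 1.02, adjusted p = 0.569). KO replicate 1 lay above 4 of the 5 WT libraries, and the groups overlapped. The H4c3 change was −2.42 without KO replicate 1, −0.64 without KO replicate 3, −0.37 without WT replicate 4 and −0.0088 without KO replicates 2 and 3. H4c8 was at 21, 15.1 and 11.6 normalised CPM in KO and 24.0, 15.6, 10.8, 0 and 18.1 in WT libraries (log2 change 0.21, SE 1.43, adjusted p = 0.945). H4c17 was at 44.7, 20.2 and 3.40 normalised CPM in KO and 75.9, 12.6, 54.1, 34.7 and 0 in WT libraries (log2 change −0.64, SE 1.64, adjusted p = 0.843). H4c18 was at 6.91, 4.49 and 27.4 normalised CPM in KO and 21.1, 29.7, 2.52, 1.83 and 0 in WT libraries (log2 change 0.23, SE 1.65, adjusted p = 0.949). The groups overlapped for each of these 3 genes. H4c17 and H4c18 share 88.1 and 80.7% of their 100-base stretches, so how the authors' counting split their reads is uncertain; summed they were at 51.6, 24.5 and 30.8 in KO and 97.0, 42.2, 56.6, 36.5 and 0 in WT libraries. H4c16, of cluster 4, had 41.9, 22.1 and 88.4 counts in KO and 476, 266, 21.3, 3.02 and 14.7 in WT libraries. H4c14 had 49, 1 and 0 counts in KO and 170, 166, 199, 0 and 1 in WT libraries. H4c9 had 0, 37.4 and 11.3 counts in KO and 1.15, 16.4, 135, 0 and 5.25 in WT libraries.

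Of the replication-dependent H2A genes, H2ac24 (chromosome 13, 21833026 to 21833507, minus strand) was the highest per length, at 30.3, 51.7 and 13.2 normalised CPM in KO and 35.3, 29.7, 65.7, 40.2 and 562 in WT libraries. WT replicate 5 alone stood far above the rest, and there the gene held 45.5% of all replication-dependent counts (log2 change −2.21, SE 1.25, adjusted p = 0.395 in edgeR). H2ac24 shares 92.2% of its 100-base stretches with other members, and the sum of H2ac11, H2ac23 and H2ac24 was 45.9, 57.6 and 13.3 in KO and 42.0, 33.0, 71.7, 45.2 and 616 in WT libraries. H2ac18 (chromosome 3, 96245497 to 96246082, plus strand) was at 51.6, 63.6 and 34.4 normalised CPM in KO and 22.1, 22.3, 25.4, 143 and 1.39 in WT libraries. The KO libraries lay above 4 of the 5 WT libraries and below WT replicate 4 (log2 change 0.22, SE 1.21, adjusted p = 0.932). Summed with H2ac19, all of whose 100-base stretches occur in H2ac18, it was at 56.6, 63.5 and 34.39 in KO libraries. The sum in WT libraries was 34.41, 22.3, 25.4, 157 and 1.40, so KO replicate 3 no longer lay above WT replicate 1. H2ac18 overlaps Gm20633 (up to 99.2 counts, in WT replicate 3), Gm20634 (up to 379 counts, in WT replicate 4) and Gm47313, and Gm20634 also overlaps H3c14. Reads in these overlaps cannot be assigned without strand. H2ac20 was at 12.2, 4.34 and 2.51 normalised CPM in KO and 19.8, 35.7, 21.2, 0 and 13.1 in WT libraries (log2 change −1.49, SE 1.60, adjusted p = 0.619). The groups overlapped: with scaling, WT replicate 4, at 0, lay below every KO library and the other WT libraries above every KO library. In unscaled CPM KO replicate 1 (16.5) also lay above WT replicate 5 (8.94). H2ac25 had 258, 1 and 6.63 counts in KO and 187, 0, 506, 1998 and 0 in WT libraries, and in WT replicate 4 it was the highest replication-dependent gene, with 23.1% of their counts.

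The remaining H2A genes with at least 100 counts somewhere also varied between libraries. H2ac11 had 109, 9.98 and 0 counts in KO and 81.3, 34.6, 12.6, 8.32 and 95.1 in WT libraries. H2ac23 had 69.9, 29.8 and 0 counts in KO and 0, 3.25, 59.5, 28.3 and 293 in WT libraries. H2ac8 had 15.5, 1.58 and 0 counts in KO and 1.38, 125, 60.7, 0 and 114 in WT libraries. Each of these overlapped between groups. H2ac19 had 58.4, 0 and 0 counts in KO and 148, 0, 0, 103 and 0 in WT libraries, and all of its 100-base stretches occur in H2ac18. H2ac21 had 12.2, 0 and 55.3 counts in KO and 0, 202, 39.4, 0 and 0 in WT libraries.

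Among the H2B genes, H2bc23 and H2bc24 had the largest positive log2 changes of the histone genes tested; they are described for that, after their values were seen. H2bc23 was at 12.9, 14.1 and 18.3 normalised CPM in KO and 5.14, 2.08, 1.43, 2.11 and 1.39 in WT libraries. All KO libraries lay above all WT libraries, also without TMM scaling (log2 change 2.62, SE 0.93, adjusted p = 0.325 in edgeR, 0.0109 in DESeq2). H2bc24 was at 5.34, 62.5 and 84.3 normalised CPM in KO and 9.79, 3.21, 6.47, 0 and 17.4 in WT libraries, and overlapped (log2 change 2.78, SE 1.51, adjusted p = 0.385). Both are near-identical: 100% of the 100-base stretches of H2bc23 occur in H2bc24 and 99.8% the other way, so their split is uncertain. Summed, they were at 18.3, 76.5 and 102.6 in KO and 15.0, 5.29, 7.90, 2.11 and 19.0 in WT libraries, and KO replicate 1 lay below WT replicate 5 (log2 change 2.74, SE 1.04, adjusted p = 0.324 in edgeR). The sum thus did not separate the groups although H2bc23 alone did.

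Other H2B genes went different ways. H2bc11 was at 20.9, 8.07 and 0.537 normalised CPM in KO and 7.80, 13.8, 2.86, 0 and 49.4 in WT libraries (log2 change −0.58, SE 1.77, adjusted p = 0.869). H2bc27, of cluster 3, was at 10.8, 0 and 4.65 normalised CPM in KO and 6.97, 1.13, 1.01, 67.9 and 39.3 in WT libraries (log2 change −2.17, SE 1.95, adjusted p = 0.553). H2bc4 was at 7.78, 7.63 and 0 normalised CPM in KO and 14, 0, 1.26, 115 and 71.3 in WT libraries (log2 change −2.97, SE 2.33, adjusted p = 0.507). WT replicates 4 and 5 carried most of the H2bc27 and H2bc4 counts, and all 3 genes overlapped. H2bc6 had 128, 104 and 61.9 counts in KO and 84.1, 7.10, 14.4, 0 and 88.1 in WT libraries. In unscaled CPM, H2bc6 was above all WT libraries in all KO libraries, 15.0, 22.7 and 14.3 against 7.94, 0.666, 1.29, 0 and 8.35. Its annotated span overlaps H1f4 and Gm11398, so some of its reads may not be its own. H2bc8 had 24.2, 101 and 58.3 counts in KO and 84.8, 3.25, 8.33, 11.4 and 7.99 in WT libraries. H2bc12 had 180.2, 1.29 and 0 counts in KO and 0, 21.8, 46.6, 0 and 5.70 in WT libraries. H2bc14 had 127, 0 and 10.8 counts in KO and 0, 0, 3.19, 0 and 197 in WT libraries. H2bc18 had 116, 0 and 1.99 counts in KO and 48.1, 14.2, 0, 0 and 0 in WT libraries, and overlaps Gm20628. The counts of H2bc12, H2bc14 and H2bc18 in KO came mostly from replicate 1.

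Replication-dependent H3 genes gave the fewest counts. H3c1 had 62.8, 62.1 and 8.89 counts in KO and 112, 40.9, 0, 305 and 1 in WT libraries. H3c13 had 187, 53.2 and 19.7 counts in KO and 44.5, 0, 95.9, 0 and 73.6 in WT libraries, and overlaps Gm20628 (186 counts in KO replicate 1). Both overlapped between groups, with log2 changes of −1.03 (SE 1.91) and 1.07 (SE 1.70).

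**Figure D2:**
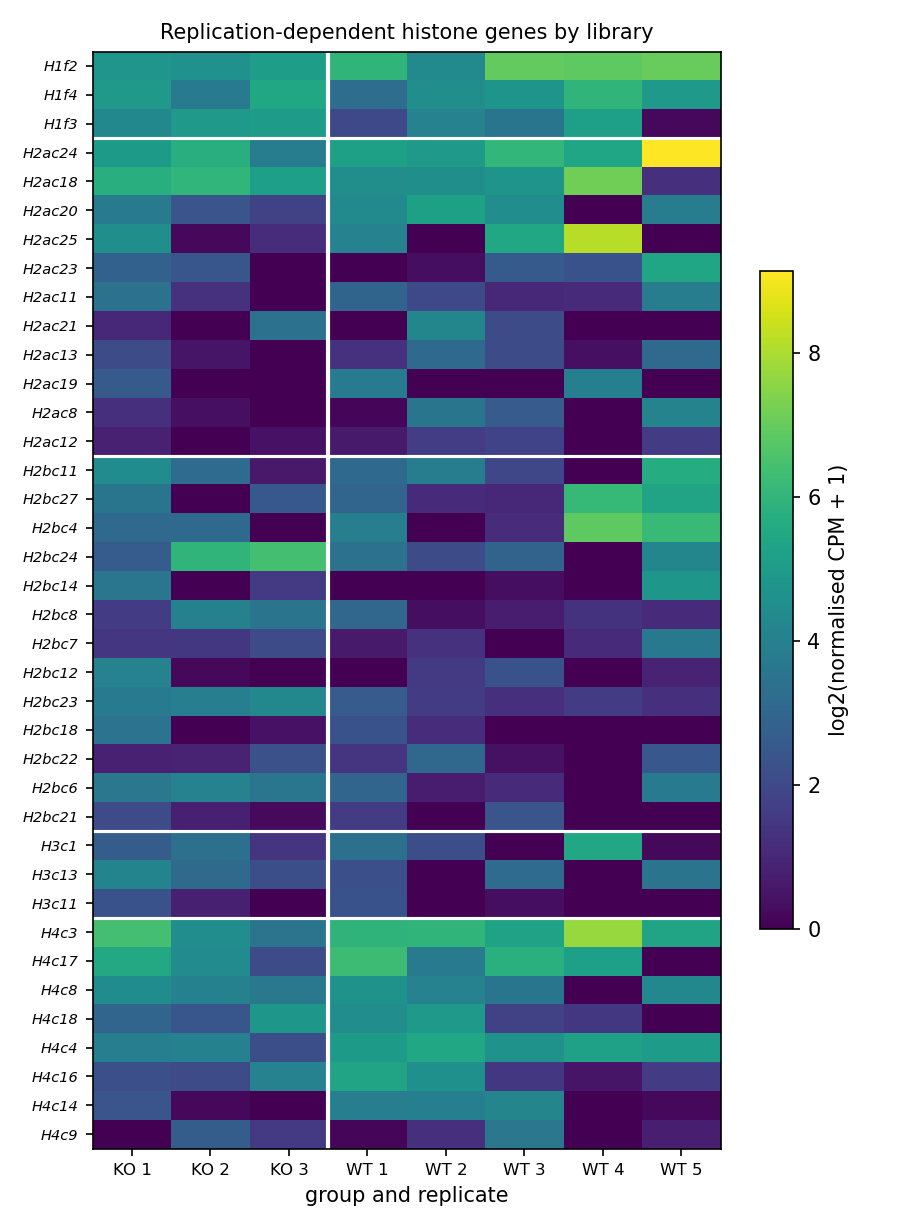
Level of the 38 tested replication-dependent genes (rows, grouped into H1, H2A, H2B, H3 and H4 from top to bottom) in each library (columns, KO left of WT), coloured by log2(normalised CPM + 1). Bright cells are scattered over single libraries, such as H2ac24 in WT replicate 5 (562) and H2ac25 in WT replicate 4 (281).

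Of the 80 genes, 45 passed the filter on low counts, 38 replication-dependent and 7 variant. Of the 35 others, 5 (H1f6, H2ac1, H4c6, H1f10 and H3f4) were at 0 throughout, a value that is compatible with as many as 3 counts per library. Another 6 reached 100 counts in 1 library only: H2ac4 (216), H2ac7 (111), H2bc13 (102) and H3c15 (104) in WT replicate 5, H3c7 (132) in WT replicate 1 and H4c1 (206) in WT replicate 3. The next highest count of each was at most 52.1, of H2bc13 in KO replicate 1. Among the tested genes 29 had a count of 0 in at least 1 library. The other untested genes stayed under 100 counts in every library. The 29 tested genes outside the 16 with the highest level per kilobase averaged 0.382 to 50.7 normalised CPM in KO and 0.83 to 67.7 in WT libraries, and 7 of them stayed under 100 counts.

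In edgeR, 0 of the 45 tested histone genes passed an adjusted p of 0.05, as did 0 of all 14755 genes (percentage called 0%), with a smallest adjusted p over all genes of 0.119. At an unadjusted p under 0.05 there were 3 histone genes, H2az1 and H3f3b lower and H2bc23 higher in KO, against 6.43% lower and 7.96% higher over all genes. DESeq2 gave an adjusted p for 47 histone genes and called 5, 3 lower in KO (H2az1, H2az2 and H4c4) and 2 higher (H2bc23 and H1f7), against 5.66% lower and 4.16% higher of 14687 genes. Of these 5, H1f7 was below edgeR's filter on low counts, with most of its counts in KO replicates 2 and 3. After TMM scaling the groups did not overlap for 4 tested histone genes (8.89%), against 17.7% of all genes. H2az1, H3f3b and H4c4 were lower in all KO libraries (4.49% of all genes) and H2bc23 higher (13.2%). Without TMM scaling H2az1 was lower (1.67% of all genes) and H1f3, H2bc23 and H2bc6 higher (18.8%).

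Log2 changes were above 0 for 13 of the 45 genes and below 0 for 32, with a median of −0.64, against 43.2% above 0 and a median of −0.42 over all genes. Without WT replicates 4 and 5, 19 of 43 were above 0, with a median of −0.42, against 46.5% and −0.15 over all genes. Without the same libraries the log2 change was −1.68 for H2az1 (adjusted p = 0.221 in edgeR), −1.07 for H3f3b, −0.04 for H3f3a and −0.42 for H2ac24. With all libraries, all 7 tested variant genes were below 0 (median −1.53). Of the 38 replication-dependent genes 13 were above and 25 below 0 (median −0.51). By family the median was −0.04 for 3 H1, −1.63 for 11 H2A, 0.18 for 13 H2B, 0.90 for 3 H3 and −0.73 for 8 H4 genes. H2B had 7 of 13 above 0 and H2A 1 of 11. Both families hold near-identical genes whose split of reads is uncertain, so these signs are not separate observations. The 95% interval held 0 for 37 of the 38 replication-dependent genes, and their SEs were 0.876 to 2.67 on the log2 scale.

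**Figure D3:**
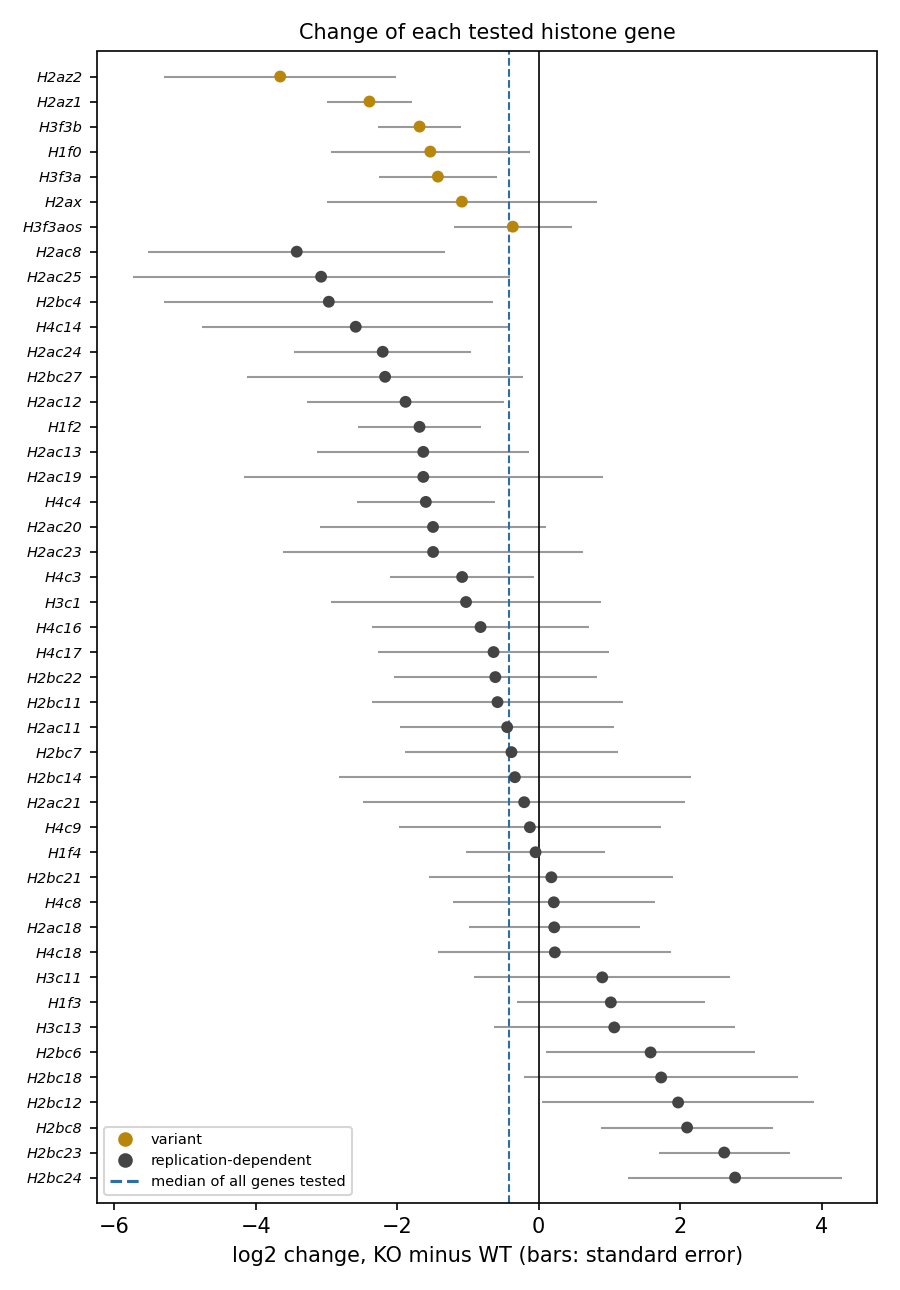
Log2 change (KO minus WT) of each of the 45 tested histone genes, with bars for standard errors and the dashed line at the median of all genes tested, −0.42. The 7 variant genes (gold, top) all lie below 0 and the replication-dependent genes (grey) spread over both sides, with H2bc24 (2.78) and H2bc23 (2.62) at the positive end.

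Summed over the 13 variant genes the level was 3405, 1869 and 1921 normalised CPM in KO and 4563, 5315, 4881, 15953 and 12129 in WT libraries, and 4592, 2737 and 2488 against 5193, 5749, 5197, 6317 and 8246 unscaled CPM. All KO libraries lay below all WT libraries on both scales. Nearly all of this sum came from the 4 genes of H3.3 and H2A.Z, at 4570, 2719 and 2460 unscaled CPM in KO and 5162, 5744, 5157, 6297 and 8232 in WT libraries. Of these 4 genes only H2az1 separated the groups by itself without scaling. Over the 67 replication-dependent genes it was 563, 427 and 402 normalised CPM in KO and 564, 437, 544, 1213 and 1236 in WT libraries. Without scaling it was 760, 626 and 520.5 unscaled CPM in KO and 641, 472, 579, 480.3 and 840.4 in WT libraries. The means thus took opposite orders, 464 ± 86.7 in KO and 799 ± 392 in WT libraries with scaling, and 635 ± 120 in KO and 603 ± 150.5 in WT libraries without (SD, n = 3 and 5), and the groups overlapped without scaling. With scaling all KO libraries but replicate 1 lay below all WT libraries, and the excess in WT came from replicates 4 and 5. Without these, the log2 ratio of the group means was −0.13 for replication-dependent genes (−0.78 with all libraries) and −1.03 for variant genes (−1.84 with all libraries). Replication-dependent genes gave 14.2, 18.6 and 17.3% of all histone counts in KO and 11, 7.59, 10.0, 7.07 and 9.25% in WT libraries. This share did not overlap between the groups.

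**Figure D4:**
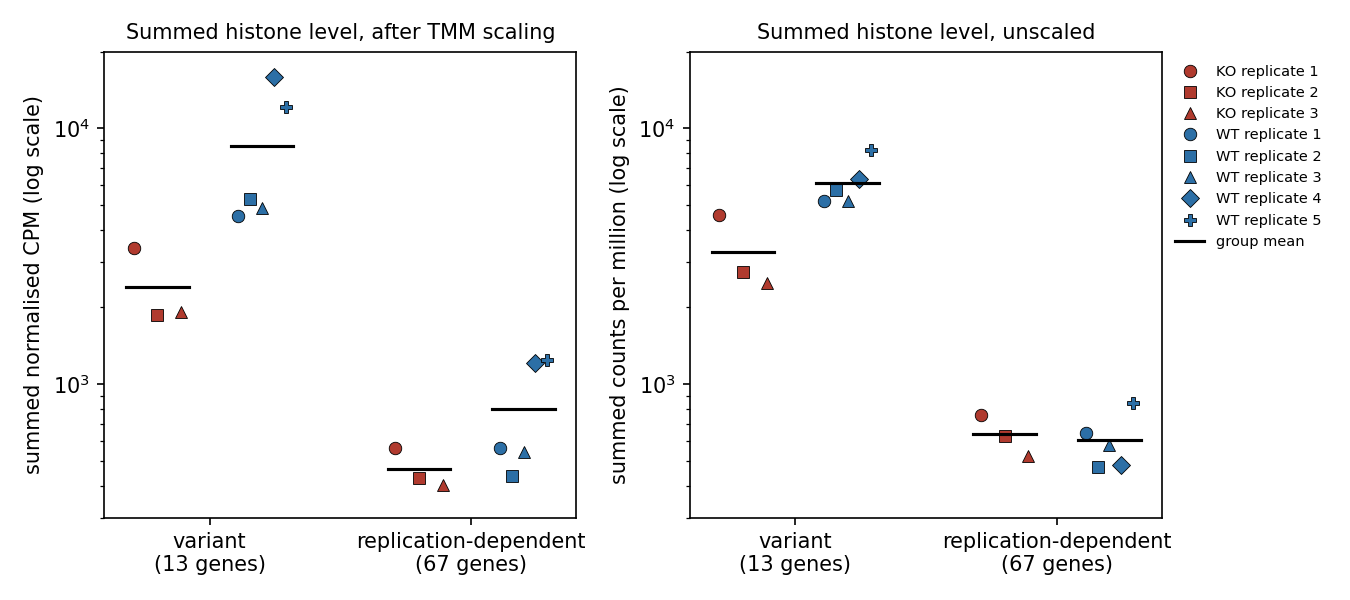
Summed level of the 13 variant and the 67 replication-dependent genes in each library (log axes), as normalised CPM on the left and unscaled CPM on the right, KO in red and WT in blue, with black lines for group means. Variant sums are lower in all KO libraries on both scales; replication-dependent sums overlap on the right, with means of 635 in KO and 603 in WT libraries.

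H2B genes gave 21.4, 30.0 and 35.9% of the replication-dependent counts in KO and 11.9, 7.71, 4.53, 15.7 and 20.3% in WT libraries, which did not overlap. H2bc23 and H2bc24 were then left out of both the H2B counts and the total, for their high values in KO. Of the remaining counts, the other 16 H2B genes gave 18.7, 14.8 and 13.9% in KO and 9.47, 6.58, 3.11, 15.6 and 19.1% in WT libraries, which overlapped. Of all replication-dependent counts, H4 genes gave 31.9, 19.9 and 20.2% in KO and 48.6, 46.4, 32.7, 23.3 and 7.47% in WT libraries, which overlapped. In KO replicate 3, H2bc24 was the highest gene and held 21% of the replication-dependent counts. The highest gene differed between most libraries: H4c3, H2ac18 and H2bc24 in KO replicates 1 to 3, and H4c17, H4c3, H1f2, H2ac25 and H2ac24 in WT replicates 1 to 5. At least 10 counts were reached by 41, 24 and 26 replication-dependent genes in KO and by 33, 30, 31, 18 and 28 in WT libraries. Transcripts annotated to end within 60 bases of the stem-loop held 44.0, 43.2 and 25.8% of the counts in KO and 43.1, 38.9, 35.6, 23.3 and 63.4% in WT libraries. Those running over 200 bases past it held 40.3, 29.9 and 38.5% in KO and 46.0, 48.6, 54.1, 61 and 21% in WT libraries. Transcripts without the motif, H2bc23 and H2bc24 among them, held 13.2, 23.3 and 32.0% in KO and 8.41, 9.66, 9.06, 9.98 and 11% in WT libraries. Of these 24 transcripts 5 hold AATAAA in their last 50 bases, H2bc23 and H2bc24 among them. These 2 are thus replication-dependent by name but not annotated with a stem-loop end. The part of tail capture in their counts, and so in the H2B share, was not tested.

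**Figure D5:**
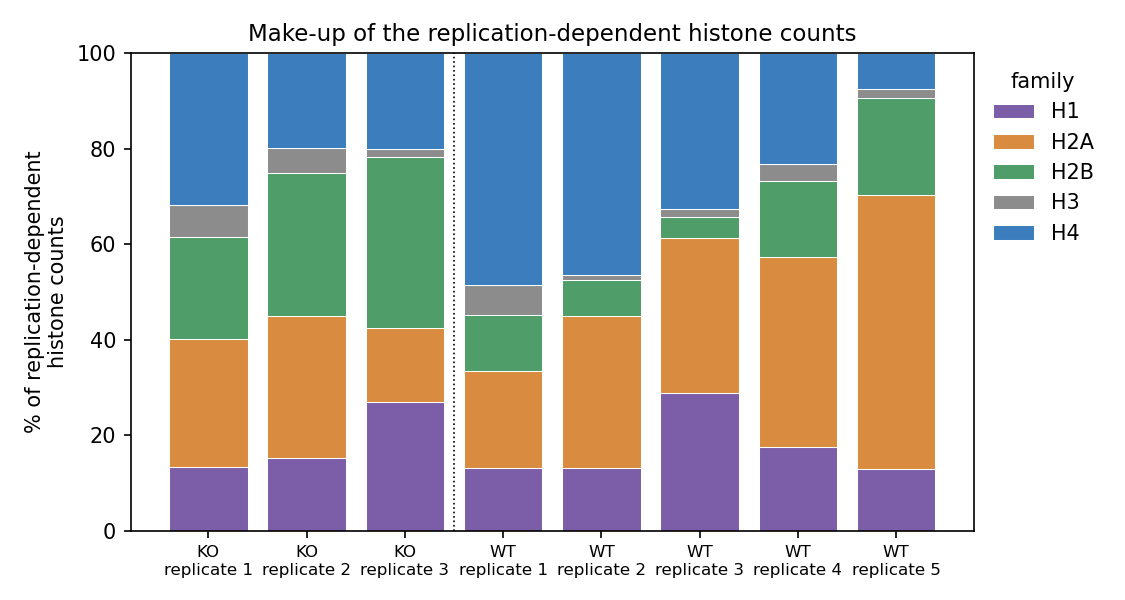
Share of each family in the replication-dependent histone counts of each library (stacked bars, percent), KO libraries left of the dotted line and WT libraries right of it. H2B takes 21.4 to 35.9% in KO and 4.53 to 20.3% in WT libraries, ranges that overlap once H2bc23 and H2bc24 are left out, and H2A reaches 57.4% in WT replicate 5.

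Genes that process histone mRNA gave 0 calls of 16 tested in edgeR, with 6 above 0, 10 below and a median log2 change of −0.60. Slbp, the stem-loop binding protein, was at 212, 77.8 and 19.5 normalised CPM in KO and 148, 193, 166, 334 and 739 in WT libraries (log2 change −1.62, SE 0.91, adjusted p = 0.393). KO replicate 1 lay above 3 WT libraries. Cpsf3, the endonuclease of the processing complex, was at 49.0, 51.6 and 28.5 in KO and 42.6, 192, 10.6, 350.2 and 13.8 in WT libraries. Zfp473, which takes part in histone pre-mRNA processing and was singled out after its values were seen, was at 4.29, 4.93 and 6.80 normalised CPM in KO and 1.33, 1.39, 0.925, 0.421 and 1.12 in WT libraries (log2 change 2.35, SE 0.78, adjusted p = 0.325 in edgeR, 0.0130 in DESeq2). All KO libraries were above all WT libraries for Zfp473, as for 1 of the 16 tested genes of the list and 13.2% of all genes.

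Histone chaperones and deposition factors gave 0 calls of 24 tested, 8 above 0 and 16 below, with a median of −1.16. Atrx, which helps deposit H3.3, was at 508, 214 and 20.4 normalised CPM in KO and 623, 394, 800.5, 849 and 581 in WT libraries. Hat1, which acetylates newly made H4, was at 42.1, 33.3 and 15.9 in KO and 32.5, 166, 361, 595 and 493 in WT libraries (log2 change −3.43, SE 1.0, adjusted p = 0.325 in edgeR, 0.00757 in DESeq2). WT replicate 1 lay among the KO libraries for Hat1. A list of other histone family genes had 6 tested, 0 above 0 and 6 below (median −2.33, 0 calls in edgeR), but H2az1, H2az2 and H2ax are in it under their present names. Macroh2a1, the macroH2A gene and not a member, was at 194, 137 and 87.3 in KO and 184, 151, 290.4, 858 and 132 in WT libraries.

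Genes of S phase and DNA replication gave 0 calls of 27 tested in edgeR, 13 above 0 and 14 below, with a median of −0.13. Tyms, thymidylate synthase, was at 344, 568 and 965 normalised CPM in KO and 174, 185, 166, 130.2 and 222 in WT libraries, without overlap (log2 change 1.83, SE 0.51, adjusted p = 0.325 in edgeR, 0.0627 in DESeq2). Every KO library was above every WT library for 2 of the 27 tested genes, against 13.2% of all genes. Ccne2, cyclin E2, was at 304, 666 and 644 in KO and 86.0, 193, 65.9, 33.3 and 584 in WT libraries. Genes of G2 and mitosis gave 0 calls of 17 tested, 2 above 0 and 15 below, with a median of −2.66. They summed to 138, 217 and 137 in KO and 92.2, 132, 84.5, 1875 and 3100 in WT libraries, so the high values were those of WT replicates 4 and 5. Birc5, the mitotic protein survivin, was at 39.2, 15.1 and 6.26 in KO and 1.91, 1.91, 1.60, 338 and 312 in WT libraries. Ccnb2, cyclin B2, was at 2.54, 0 and 65.7 in KO and 0, 0, 0.0841, 149 and 569 in WT libraries. At an unadjusted p under 0.05 edgeR found 1 of the mRNA processing, 2 of the chaperone, 3 of the S phase and 0 of the mitosis genes, against 7.96% higher and 6.43% lower over all genes. DESeq2, which called 4.16% of all genes higher and 5.66% lower, called Zfp473, the chaperone genes Hat1 and Nap1l1, the replication genes Gins1 (higher in KO) and Prim1 (lower) and the mitosis gene Tpx2 (lower), named here after their values were seen.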

How the data were processed

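Libraries were made with SMART-Seq v4 from 10 ng of total RNA, per the labels' protocols. The authors deposited 1 table of expected counts for the 8 libraries, with 0 columns of other samples. RSEM, StringTie, HISAT2, fastp, DESeq2 and the mm10 build stand in the submitters' processing notes, with no versions or roles. Of the values above 0 of the histone genes 90.4% were not whole. Groups came from the sample titles.

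Expected counts were rounded. Genes were kept by filterByExpr (minimum count 10) of edgeR 4.0.16 in R 4.3.3, TMM factors were taken over those genes, and KO was compared with WT by a two-sided quasi-likelihood test with no covariate, adjusted by Benjamini-Hochberg over 14755 genes. A standard error is the size of the log2 change divided by the root of F. The procedure was tested on simulated data, where at the spread of these libraries edgeR recovered none of the changed genes, so its lack of calls does not show that histone genes were alike. DESeq2 1.42.0 was an alternative. The common dispersion, the squared coefficient of variation between libraries beyond counting error, was 1.67. No pair of libraries of a group agreed within sampling noise (chi-square per degree of freedom at least 66.8). Limits from a count of 0 cover counting error only.

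The members and lists were chosen with earlier results of these data known, and no test was made over a list. The 16 tested genes with the highest mean normalised CPM per kilobase, and any past the threshold, are given in full; other histone genes with at least 100 counts in some library are given by counts; of each other list the 2 highest in mean normalised CPM are named. Coordinates and transcripts are from GENCODE M21, which held all 80 genes; 31 overlap another gene, 27 on the opposite strand, and 25 share at least 50% of their 100-base windows with another member. Alternatives were DESeq2's size factors, other filters, thinning, leaving out libraries, a replicate block and, added after seeing the data, summing near-identical members and leaving H2bc23 and H2bc24 out of the H2B share. Figures were drawn with matplotlib 3.10.9. Protein sequences were not used here.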

Additional observations from a re-analysis of the deposited data

Results flagged for a closer look

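The 5 WT libraries of each of 20 histone levels were screened for a library far from the others, relative to the range of the group. For normally distributed values chance flags about 1 group in 20. The levels were not put on a log scale, and whether that rate applies to them was not tested. WT replicate 4 stood out for H3f3a, with 4489.2 normalised CPM against 1446 in the next highest. It also stood out for H4c3, with 209.45 against 62.1, and for H2ac18, with 142.864 against 25.4. WT replicate 5 stood out for H2ac24, with 561.893 against 65.7, and for H2bc11, with 49.3819 against 13.8. These are the libraries with the smallest TMM factors, 0.4 and 0.689, and with the high B cell and erythroid marker sums; the part of either in these values was not tested.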

How the results depend on the processing

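The count of histone genes past the threshold was 0 in edgeR under each alternative run, and 5 in DESeq2. Over all genes it was 0, but 1443 in DESeq2, and 1 each with thinning to the shallowest library, with no filter and with a mean of at least 5 CPM. DESeq2 brought H2az1 (log2 change −2.92, adjusted p = 0.0109), H2az2 (−4.40, 0.0473) and H4c4 (−1.99, 0.0491) past the threshold. It also called, as higher in KO, H2bc23 (2.31, 0.0109) and H1f7 (4.94, 0.0341), the second of which was below edgeR's filter. The log2 ratio of the group means of the summed levels was −0.78 for replication-dependent genes, −0.13 without WT replicates 4 and 5, and −1.02 to −0.41 when 1 library was left out; for variant genes it was −1.84, −1.03 and −2.25 to −1.49. The cause was not tested.

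Over up to 18 alternatives each, 9 of the 16 genes given in full kept the sign of their change and 7 did not. When 1 library was left out, H2ac18 (0.22 with all) ranged from −0.011 to 1.49, H4c8 (0.21) from −0.11 to 0.52, H2bc11 (−0.58) from −1.82 to 0.72 and H4c18 (0.23) from −0.96 to 1.03; H3f3a (−1.43) from −1.82 to −0.50, H2ac24 (−2.21) from −2.77 to −0.30, H4c17 (−0.64) from −1.63 to −0.14, H2ac20 (−1.49) from −2.45 to −1.08 and H2bc27 (−2.17) from −3.42 to −1.23 kept their sign. Without WT replicates 4 and 5 the change was −0.055 for H4c8, 0.27 for H2bc11, −0.43 for H4c18, 0.76 for H2bc27 and 0.072 for H2bc4. Without KO replicates 2 and 3 it was 0.29 for H4c17, 0.40 for H2bc11 and −0.74 for H4c18. With no filter it was −0.012 for H2ac18, −0.0010 for H4c8 and −0.085 for H4c18. DESeq2 gave −0.47 for H2ac18 and −0.011 for H4c8, and DESeq2's size factors in edgeR −0.45 for H2ac18. Those size factors moved the median of all genes to −0.72. Libraries whose names start with FY are WT replicates 2 and 3; without them 12 of 38 histone genes were above 0 (median −0.99; all genes 49.3% and −0.05).

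Same-numbered KO and WT libraries had correlations of 0.01, 0.02 and 0.05 of their deviations from the group means. No pairing by number showed in these values, but correlations near 0 cannot exclude it, and the labels do not state it. With replicate block on the 6 libraries with shared numbers, 0 of 43 histone genes were called, and all genes at an unadjusted p under 0.05 numbered 1470, against 2141 on the same libraries without it; the change was −0.022 for H4c8, −0.70 for H4c18 and 0.059 for H2bc27. A depth of 4.31 M (mega counts) limits the low genes most.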

Other observations

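The pseudogene H2af-ps2, which the selection by name leaves out, was at 5.34, 5.38 and 2.15 normalised CPM in KO libraries and had 0 counts in all 5 WT libraries, where a count of 0 allows up to 3 counts in each. It was chosen after its values were seen and passed the filter through the KO libraries alone, so no test is given.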
